A study of Arabidopsis thaliana with 9 samples.

Results

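The genes described here are 36 of the 37898 Arabidopsis thaliana genes in the deposited table. They are those whose mean in Col-0 was below 0.5 FPKM and whose value was 1 FPKM or more in each nrpe1-11 library. FPKM is the number of sequenced fragments per kilobase of transcript, scaled to library size, so it is a level per length. RNA with a poly(A) tail was sequenced from whole seedlings, 2 weeks old, of 3 genotypes with 3 libraries each. The tested genotypes were nrpe1-11, a mutant of NRPE1, and nrpd1-3, a mutant of NRPD1. Wild-type plants of the ecotype Col-0 served as their control. All 9 libraries carry the treatment label Mock, and the growth protocol gives days with 16 h light (22 °C) and nights with 8 h dark (18 °C). The labels give neither the nature of the alleles nor whether replicate libraries were made from different plants or pools. The p-values below therefore measure only the spread between these libraries. In whole seedlings, fewer cells of a type and less RNA per cell cannot be told apart.

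NRPE1 is the largest subunit of RNA polymerase V (Pol V), and NRPD1 is the largest subunit of RNA polymerase IV (Pol IV). In RNA-directed DNA methylation, Pol IV makes the precursors of short interfering RNAs. Pol V makes longer noncoding transcripts at the same kinds of loci. Argonaute proteins loaded with the short RNAs bind these Pol V transcripts, and a DNA methyltransferase is brought to the locus. The pathway is best known for silencing transposons, repeats and some genes beside them. A gene that depends on both polymerases would be released in both mutants, and the series set the nrpd1-3 libraries beside the nrpe1-11 ones to look for roles of Pol V outside that pathway.

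Calling these genes silent in Col-0 goes too far for most of them, because 34 of the 36 had a value above 0 in at least 1 Col-0 library. The exceptions were AT5G41830 and CBL8, which were listed at 0 in all 3. Some of the values above 0 stand for less than a whole sequenced fragment, as given below. The members were chosen by their nrpe1-11 and Col-0 values, so the gap between these genotypes is given as a description without a test. Every nrpe1-11 library lay above every Col-0 library for all 36, where 28.7% of the 18212 tested genes did so, and nothing is read from that count. Across the 36 genes the mean FPKM ran from 1.08 to 5.42 in nrpe1-11 with a median of 1.71. In nrpd1-3 it ran from 0.0676 to 2.20 with a median of 0.676, and in Col-0 from 0 to 0.491 with a median of 0.312. Only 36 of the 6427 genes with a Col-0 mean below 0.5 FPKM and a value above 0 somewhere met the nrpe1-11 limit as well.

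The plot of all members shows the 3 libraries of each genotype for every gene.

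**Figure D1:**
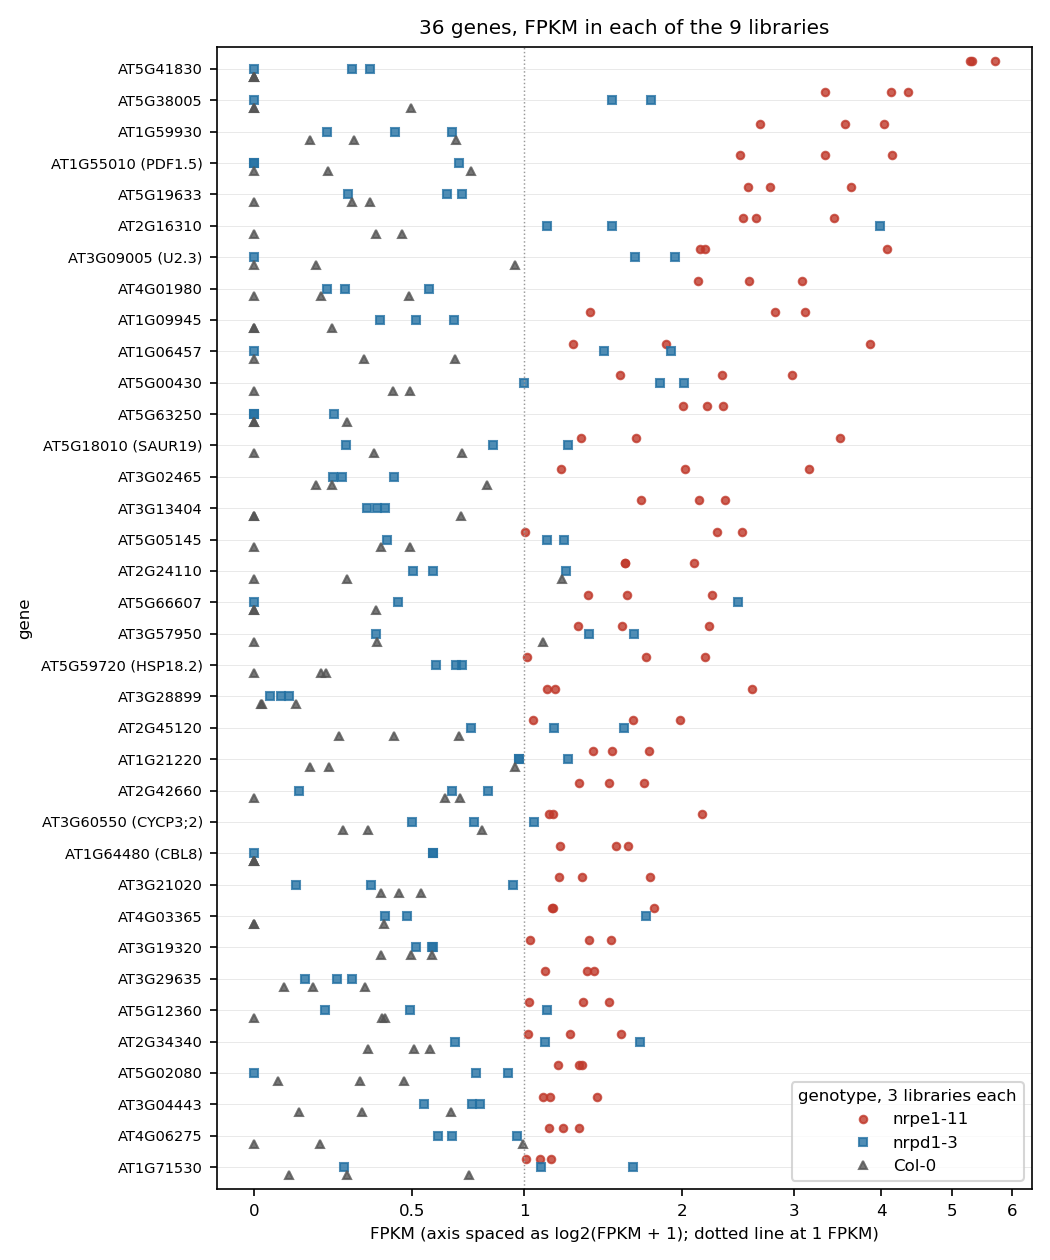
FPKM of the 36 genes in each library, on an axis spaced as log2(FPKM + 1), with 1 point per library and the genes ordered by their nrpe1-11 mean. The nrpe1-11 points lie at or to the right of 1 FPKM by the rule, the Col-0 points average below 0.5, and the nrpd1-3 points spread from 0 to 3.99.

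The same rule was turned round to show how many genes it finds for other pairs of genotypes. It found 6 genes low in Col-0 and at 1 FPKM or more in each nrpd1-3 library. It found 19 genes low in nrpd1-3 and on in nrpe1-11, and 5 low in nrpd1-3 and on in Col-0. With nrpe1-11 as the low genotype it found 130 genes that were on in nrpd1-3 and 101 that were on in Col-0. The direction from low Col-0 to nrpe1-11 therefore held fewer genes than the opposite direction. Removing 1 library from the rule changed its result. With 2 nrpe1-11 libraries it found 74, 79 and 70 genes without replicate 1, 2 and 3. Leaving out Col-0 replicate 1, 2 or 3 gave 57, 47 and 64.

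Members close to the limits show how narrow the choice was. Just inside the Col-0 limit were AT2G24110 with a mean of 0.491 FPKM and AT3G57950 with 0.489. Just outside it were the SKU5-similar gene sks15 with 0.505 and the vacuolar sorting receptor gene VSR5 with 0.507. The lowest nrpe1-11 library was at 1.00 FPKM for AT5G05145 and 1.01 for AT1G71530. MIR159b, with 0.998, and AT4G30250, with 0.989, just missed that limit.

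Most of the 36 genes rest on few sequenced fragments. From the spacing of low FPKM values, each library held 1.01 to 1.25 gigabases of aligned sequence, and 76.8% to 80.5% of low values lay within 0.1 base of a step. The most frequent whole number of aligned bases was 282, seen in 169 of 10803 low values, and was taken as 1 full fragment. By that estimate the median member had 18.0 fragments summed over the 3 nrpe1-11 libraries, 6.80 over nrpd1-3 and 2.51 over Col-0. Some Col-0 sums above 0 were under 1 fragment, such as 0.214 for AT3G28899 and 0.518 for AT5G66607. In the shallowest nrpe1-11 library of each gene the median was 4.84 fragments. Only 3 of the 36 had 10 or more in each nrpe1-11 library, and 7 had under 3 in at least 1. These estimates cover counting only, and a value of 0 in a library does not show absence of the RNA at this depth.

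**Figure D2:**
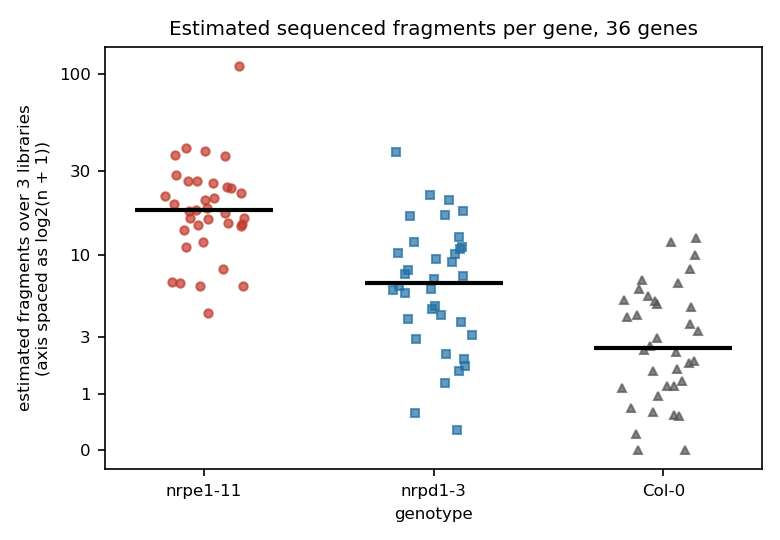
Estimated fragments per gene, summed over the 3 libraries of a genotype and spaced as log2(n + 1), with 1 point per gene and a black line at the median. The medians are 18.0 in nrpe1-11, 6.80 in nrpd1-3 and 2.51 in Col-0, and the point at 110.8 in nrpe1-11 is AT5G41830.

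Genes mutated in the 2 lines were looked at first. NRPE1 (AT2G40030) had 0.624, 0.254 and 0.339 FPKM in nrpe1-11, 1.40, 1.28 and 1.19 in nrpd1-3, and 0.831, 0.843 and 0.863 in Col-0. Its RNA was lowest in the nrpe1-11 libraries without overlap. NRPD1 (AT1G63020) had 1.56, 1.98 and 2.30 FPKM in nrpe1-11, 0.674, 0.670 and 0.947 in libraries with the nrpd1-3 label, and 0.565, 0.489 and 1.05 in Col-0. Its RNA does not set the libraries labelled nrpd1-3 apart from Col-0, so that label is not checked by these values, and every statement below on nrpd1-3 rests on the label. Marker genes of seedling organs also differed between genotypes. The summed FPKM of 3 leaf markers was 3110 to 3513 in nrpe1-11, 5025 to 5280 in nrpd1-3 and 4991 to 5662 in Col-0. By limma, with calls at an adjusted p under 0.05, all 3 leaf markers fell in nrpe1-11 relative to Col-0 and 2 of 3 tested root markers rose. Over all tested genes 14.2% were called higher in that comparison and 7.54% lower. Those shares turn with the scaling, with 2581 higher and 1374 lower calls as deposited, 1189 and 2163 after median-ratio rescaling, and 1625 and 1858 after quantile normalization. Both root marker calls were lost after median-ratio rescaling, and 1 of the 3 leaf marker calls after quantile normalization. The summed root markers were at 527 to 550 FPKM in nrpe1-11, 400.3 to 490.2 in nrpd1-3 and 332 to 444 in Col-0. PYK10 alone had 518, 516 and 537 FPKM in nrpe1-11, so the root sum mostly follows that gene. In the leaf sum RBCS1A was the largest part, with 2393, 2739 and 2739 FPKM in nrpe1-11. The part of these shifts in the values of the 36 genes was not tested. All 5 seed and embryo markers were listed at 0 in all 9 libraries, and so were 3 of 4 pollen markers. Of 4 flower organ markers, 2 were tested and none was called, with sums of 3.34 to 4.46 FPKM in nrpe1-11, 2.19 to 2.62 in nrpd1-3 and 0.959 to 3.92 in Col-0.

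The 36 genes were a mixed set by annotation. There were 22 protein-coding genes, 5 pseudogenes, 2 small structured RNAs and 7 other noncoding RNAs. Protein-coding genes made up 61.1% of the members, 96.7% of the 18212 genes tested and 72.4% of all genes in the table. Of the 22 protein-coding members, 6 encode uncharacterized proteins. The members were short, with a median longest transcript of 906.5 bases against 1720 for tested genes and 1338 for all genes. A short transcript reaches a given FPKM with fewer fragments. A single exon was annotated for 18 of 36 members (50.0%), 16.1% of tested genes and 37.7% of all genes. They were spread over the chromosomes, with 7, 5, 10, 3 and 11 members on chromosomes 1 to 5, and the closest pair, AT3G09005 and AT3G57950, lay 51739 bases apart.

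To show what lies in front of genes with large differences between nrpe1-11 and nrpd1-3, the 200 bases before the annotated start are printed for 3 protein-coding members and 1 tandem neighbour. The windows are read 5′ to 3′ on the gene's own strand from the TAIR10.1 genome and end at the base before the transcript. AT5G41830 had the highest nrpe1-11 level, AT1G59930 is a member of a tandem pair with AT1G59920, and AT5G63250 had one of the most even nrpe1-11 values. Capitals mark CACGTG in AT5G41830, TATAAA on either strand in the pair, and TATAAA on either strand and TTGACT in AT5G63250.
AT5G41830, chr5:16745520-16745719, minus strand: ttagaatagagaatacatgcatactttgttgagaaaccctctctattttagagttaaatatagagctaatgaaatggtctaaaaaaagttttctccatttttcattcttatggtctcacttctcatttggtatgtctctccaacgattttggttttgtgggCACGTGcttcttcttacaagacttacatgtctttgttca
AT1G59930, chr1:22061517-22061716, minus strand: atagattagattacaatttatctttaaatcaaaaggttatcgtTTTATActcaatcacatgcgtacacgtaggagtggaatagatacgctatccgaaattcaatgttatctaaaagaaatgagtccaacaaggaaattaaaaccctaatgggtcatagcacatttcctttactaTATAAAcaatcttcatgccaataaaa
AT1G59920, chr1:22059843-22060042, minus strand: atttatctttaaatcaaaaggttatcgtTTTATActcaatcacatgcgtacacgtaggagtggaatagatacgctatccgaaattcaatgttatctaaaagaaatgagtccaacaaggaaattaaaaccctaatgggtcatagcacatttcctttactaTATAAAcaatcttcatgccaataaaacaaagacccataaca
AT5G63250, chr5:25360696-25360895, minus strand: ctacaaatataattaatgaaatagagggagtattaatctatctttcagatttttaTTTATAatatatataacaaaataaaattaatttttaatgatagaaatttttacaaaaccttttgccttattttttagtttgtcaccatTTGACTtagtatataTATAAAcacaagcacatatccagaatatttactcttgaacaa
In AT5G41830 the G-box letters CACGTG lie at -39 to -34 from the start. AT1G59930 has TATAAA at -26 to -21, and AT5G63250 has it at -42 to -37 with the W-box letters TTGACT at -57 to -52. The windows of AT1G59930 and AT1G59920 shared an unbroken run of 185 identical bases, or 86.0% of their alignment. The rest of that alignment is the ends left over because the annotated starts are offset, not mismatched bases. Unrelated pairs among the printed windows shared 46.9% to 52.8%.

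Motifs were counted on both strands in the 250 bases before each start, and a match is a description of the letters only. TATAAA was present for 19 of 36 members (52.8%), 46.1% of tested genes and 44.6% of all genes. CACGTG was present for 1 member (2.78%), 7.18% of tested genes and 5.39% of all genes. AAAAATCT, the letters of a CCA1 site, was present for 5 members (13.9%), 6.72% of tested genes and 6.11% of all genes. The evening element AAAATATCT was found for none of the 36, and for 2.48% of tested and 2.11% of all genes. Of the W-box cores, TTGACC was present for 3 members (8.33%) against 12.3% of tested and 11.5% of all genes. TTGACT was present for 4 members (11.1%) against 19.0% and 18.5%. The median GC content of the window was 33.4% for members, 31.2% for tested genes and 32.0% for all genes. None of these shares was tested.

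Among members annotated as regulators or signalling proteins, AT1G59930 encodes a MADS-box protein, one of a family of DNA-binding transcription factors, and the annotation notes it as an imprinted gene expressed from the maternal copy. It had 2.66, 4.04 and 3.55 FPKM in nrpe1-11, 0.204, 0.433 and 0.659 in nrpd1-3, and 0.292, 0.676 and 0.155 in Col-0. The nrpd1-3 and Col-0 values overlapped, and all nrpe1-11 values lay above both. SAUR19, from a family of small auxin-induced RNAs whose proteins promote cell expansion, had 1.31, 3.49 and 1.66 FPKM in nrpe1-11, 1.24, 0.265 and 0.845 in nrpd1-3, and 0.704, 0 and 0.360 in Col-0. One nrpe1-11 library was well above the other two, and the lowest of them was close to the highest nrpd1-3 library. CBL8, a calcineurin B-like calcium sensor of the kind that works with CIPK kinases, had 1.61, 1.19 and 1.53 FPKM in nrpe1-11, 0.583, 0 and 0.583 in nrpd1-3, and was listed at 0 in all Col-0 libraries. It lies outside the naming rule and is named after its values were seen. AT1G71530, a protein kinase family member and one of the 2 nearest the nrpe1-11 limit, had 1.01, 1.14 and 1.08 FPKM in nrpe1-11, 1.09, 1.64 and 0.260 in nrpd1-3, and 0.270, 0.737 and 0.0937 in Col-0. Its nrpd1-3 libraries lay below, among and above the nrpe1-11 ones.

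Genes for defence, protein turnover, cell wall and metabolism formed another group. AT5G41830, annotated as an RNI-like protein with the leucine-rich repeat fold found in many F-box proteins, had 5.69, 5.31 and 5.27 FPKM in nrpe1-11, 0.345, 0.285 and 0 in nrpd1-3, and was listed at 0 in all Col-0 libraries. Its estimated fragments were 110.8 in nrpe1-11, 4.65 in nrpd1-3 and 0 in Col-0, the most of any member in nrpe1-11. PDF1.5, a plant defensin from a family of small cysteine-rich peptides with antimicrobial members, had 4.14, 2.48 and 3.32 FPKM in nrpe1-11, 0.692, 0 and 0 in nrpd1-3, and 0.209, 0.745 and 0 in Col-0. Its nrpd1-3 and Col-0 values shared one range below 1 FPKM. AT5G63250 encodes a protein with an X8 domain, which binds glucans of the cell wall in the family members studied. It had 2.33, 2.01 and 2.20 FPKM in nrpe1-11, 0.227, 0 and 0 in nrpd1-3, and 0.270, 0 and 0 in Col-0. The 3 nrpe1-11 values were tight and far from the other 6. HSP18.2, a small heat shock protein that acts as a chaperone and is induced by heat, had 1.02, 1.73 and 2.18 FPKM in nrpe1-11, 0.677, 0.705 and 0.592 in nrpd1-3, and 0.185, 0 and 0.202 in Col-0. Its 3 genotypes did not overlap, with nrpd1-3 between the others. AT3G29635, an HXXXD-type acyltransferase of the enzyme family that moves acyl groups from coenzyme A, had 1.11, 1.39 and 1.35 FPKM in nrpe1-11, 0.140, 0.286 and 0.236 in nrpd1-3, and 0.330, 0.163 and 0.0804 in Col-0. It too is named outside the rule, after its values were seen.

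Several protein-coding members have no known role. AT5G19633 had 2.76, 2.55 and 3.63 FPKM in nrpe1-11, 0.640, 0.273 and 0.705 in nrpd1-3, and 0.347, 0 and 0.286 in Col-0. AT3G13404 had 2.13, 2.35 and 1.70 FPKM in nrpe1-11, 0.368, 0.336 and 0.398 in nrpd1-3, and 0, 0.698 and 0 in Col-0. For both genes every nrpe1-11 library lay above the other 6. AT5G66607 did not follow them, with 1.60, 2.23 and 1.36 FPKM in nrpe1-11, 0.444, 2.46 and 0 in nrpd1-3, and 0, 0 and 0.367 in Col-0. Its highest value of all was in nrpd1-3 replicate 2. AT3G57950, annotated as a cotton fiber protein, had 1.29, 1.57 and 2.22 FPKM in nrpe1-11, 1.36, 1.65 and 0.368 in nrpd1-3, and 1.10, 0 and 0.369 in Col-0. All 3 genotypes were spread widely for this gene, and Col-0 replicate 1 was above 1 FPKM. AT3G28899, also named after its values were seen, had 1.12, 2.59 and 1.16 FPKM in nrpe1-11, 0.0702, 0.0922 and 0.0403 in nrpd1-3, and 0.0206, 0.0183 and 0.113 in Col-0.

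Pseudogenes, copies of genes that are not annotated to give a working protein, numbered 5. AT2G16310, a pseudogene of endoplasmic reticulum retrieval protein 1B, had 2.63, 2.51 and 3.43 FPKM in nrpe1-11, 3.99, 1.12 and 1.503 in nrpd1-3, and 0, 0.366 and 0.461 in Col-0. It was the only member at 1 FPKM or more in all 3 nrpd1-3 libraries, and both mutants lay above every Col-0 library. AT4G01980 had 2.13, 3.08 and 2.56 FPKM in nrpe1-11, 0.205, 0.262 and 0.566 in nrpd1-3, and 0.186, 0.487 and 0 in Col-0. AT2G24110, a pseudogene of ribosomal protein S11-beta, had 1.59, 1.59 and 2.09 FPKM in nrpe1-11, 1.23, 0.504 and 0.584 in nrpd1-3, and 1.205, 0 and 0.268 in Col-0. Its highest Col-0 library was above 2 of the nrpd1-3 libraries.

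Noncoding RNAs included the member with the second highest mean. AT5G38005 had 4.13, 4.36 and 3.33 FPKM in nrpe1-11, 1.77, 1.502 and 0 in nrpd1-3, and 0.496, 0 and 0 in Col-0. AT1G09945 had 2.81, 3.11 and 1.37 FPKM in nrpe1-11, 0.514, 0.671 and 0.381 in nrpd1-3, and 0, 0 and 0.220 in Col-0. The 3 genotypes of AT1G09945 stood in order without overlap. AT5G00430 had 2.32, 2.97 and 1.55 FPKM in nrpe1-11, 2.01, 1.83 and 0.998 in nrpd1-3, and 0.428, 0 and 0.491 in Col-0. Its nrpe1-11 and nrpd1-3 values overlapped, and both lay above Col-0. AT3G02465, an antisense transcript to the TBL8 gene, had 3.15, 2.02 and 1.195 FPKM in nrpe1-11, 0.254, 0.432 and 0.222 in nrpd1-3, and 0.816, 0.219 and 0.172 in Col-0. AT5G05145 had 1.00, 2.50 and 2.28 FPKM in nrpe1-11, 1.21, 1.12 and 0.404 in nrpd1-3, and 0.383, 0.493 and 0 in Col-0. Its nrpe1-11 replicate 1 was below 2 of the 3 nrpd1-3 libraries.

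Both small structured RNAs are of kinds that usually lack a poly(A) tail. U2.3 (AT3G09005), annotated as a small nuclear RNA, had 2.14, 4.07 and 2.18 FPKM in nrpe1-11, 1.95, 0 and 1.65 in nrpd1-3, and 0.954, 0.172 and 0 in Col-0. AT1G06457, annotated as a small nucleolar RNA, a kind that guides the chemical modification of other RNAs, had 1.87, 1.27 and 3.85 FPKM in nrpe1-11, 1.46, 1.91 and 0 in nrpd1-3, and 0, 0.674 and 0.327 in Col-0. It is the shortest member with 154 bases, which are printed whole to show how little sequence carried its 4.40 estimated fragments in nrpe1-11, 2.23 in nrpd1-3 and 0.591 in Col-0.
AT1G06457, chr1:11435420-11435573, minus strand: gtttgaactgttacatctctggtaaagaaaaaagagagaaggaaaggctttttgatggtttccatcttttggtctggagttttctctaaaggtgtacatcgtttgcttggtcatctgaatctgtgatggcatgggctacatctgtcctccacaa
Its smallest nrpe1-11 value stood for 0.773 of a fragment, and the same letters lie inside the protein-coding gene AT1G31860 on the same strand, 108 of them in an exon.

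The remaining 12 members were 8 protein-coding genes, 2 pseudogenes and 2 noncoding RNAs. Among them were the zinc finger gene AT2G45120, the homeodomain-like gene AT2G42660, the cyclin gene CYCP3;2 and AT5G02080, which resembles an enzyme of coenzyme A synthesis. Their means ran from 1.21 to 1.56 FPKM in nrpe1-11, 0.469 to 1.16 in nrpd1-3 and 0.132 to 0.485 in Col-0. Single libraries ran from 1.02 to 2.16 FPKM in nrpe1-11, 0 to 1.73 in nrpd1-3 and 0 to 0.992 in Col-0. Every nrpe1-11 library lay above every nrpd1-3 library for 8 of the 12, against 19.0% of tested genes. Every nrpd1-3 library lay above every Col-0 library for 4 of the 12, against 10.1% of tested genes. The rule chose high nrpe1-11 and low Col-0 values, so nothing is read from either count.

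The values in nrpd1-3, which the rule did not use, were mostly between those of nrpe1-11 and Col-0. Members were chosen high in nrpe1-11 and low in Col-0, so a genotype left out of the choice tends to lie between them anyway. Nothing is read from that position. At 1 FPKM or more were 14, 8 and 6 of the 36 members in nrpd1-3 replicates 1, 2 and 3, and 2, 0 and 0 in the Col-0 replicates. Listed at 0 were 0, 5 and 6 members in nrpd1-3, and 9, 14 and 10 in Col-0. The estimated depths of these libraries were 1.25, 1.18 and 1.09 gigabases in nrpd1-3, and 1.23, 1.01 and 1.22 in Col-0. The part of depth in the counts was not tested. By gene, 19 members reached 1 FPKM in no nrpd1-3 library, 7 in 1, 9 in 2 and 1 in all 3. That last gene was AT2G16310, and across all 6427 genes low in Col-0 the share at 1 FPKM or more in each nrpd1-3 library was 0.0934%. The number on in all nrpd1-3 libraries depended on single libraries, with 4 genes when nrpd1-3 replicate 2 was left out and 7 without nrpd1-3 replicate 3. It was 5, 2 and 8 when Col-0 replicate 1, 2 or 3 was left out, and 3 without nrpe1-11 replicate 2.

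The nrpd1-3 mean was below 0.5 FPKM for 11 members, which is 30.6% of them against 90.2% of the 6427 genes low in Col-0. These 11 would also be called low in nrpd1-3 by the Col-0 limit. Leaving out nrpe1-11 replicate 1, 2 or 3, which loosens the rule, gave 32, 22 and 22 such genes. The 11 were AT5G41830, AT1G59930, PDF1.5, AT4G01980, AT5G63250, AT3G02465, AT3G13404, AT3G28899, CBL8, AT3G21020 and AT3G29635. The nrpd1-3 mean was above the Col-0 mean for 33 of 36 members (91.7%), against 52.4% of the 6427. Both comparisons are tilted. The 6427 met the same Col-0 limit, but members also had to reach 1 FPKM in each nrpe1-11 library. Many of the 6427 had almost no RNA.

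In the fit over all 18212 genes, nrpd1-3 against Col-0 gave 0 calls at an adjusted p under 0.05 by limma (percent called 0.0), with 1284 genes at an unadjusted p under 0.05. All 36 members entered the fit, because their nrpe1-11 values alone pass the filter of 1 FPKM in 3 libraries. No member was called, and 8 of the 36 were at an unadjusted p under 0.05. The median member difference was 0.36 on the log2(FPKM + 1) scale, against 0.11 over all tested genes. Every nrpd1-3 library lay above every Col-0 library for 8 members (22.2%), against 10.1% of tested genes, and the Col-0 values were chosen low. These 8 were AT2G16310, AT1G09945, AT5G00430, HSP18.2, AT2G45120, AT1G21220, AT4G03365 and AT2G34340. AT2G16310 had the largest difference, 1.24 ± 0.29 (SE), and AT5G00430 followed with 1.00 ± 0.25 (SE). No p is given for single members here, because their Col-0 values were chosen low. The 95% interval, which is not adjusted for the number of genes, reached a median of 0.55 to either side over the members. Smaller differences in nrpd1-3 could not be set apart from 0. Larger ones also went uncalled after the adjustment, up to the 1.24 of AT2G16310. In simulated data for this comparison, 21 of 50 low genes changed by 1 on the log2 scale were recovered, and 48 of 50 changed by 2. Low there meant a mean log2(FPKM + 1) under 1.5. The noise was normal, without the counting of fragments, and many changed genes were planted together, which eases the adjusted threshold. These shares therefore do not give the recovery for the members.

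The comparison of nrpe1-11 with nrpd1-3 uses the nrpe1-11 values that chose the members, so its values are a description and no p is given for single members. The mean was higher in nrpe1-11 for all 36 members, and their median difference was 0.69 on the log2(FPKM + 1) scale, against 0.06 over all tested genes. Every nrpe1-11 library lay above every nrpd1-3 library for 25 members (69.4%), against 19.0% of tested genes. In the limma fit 13 of 36 members (36.1%) stood higher in nrpe1-11 at an adjusted p under 0.05 and none lower, where 6.19% of all tested genes were called higher and 8.52% lower. Since choosing high nrpe1-11 values helps to set that count, nothing is read from it. The calls over all genes were 1128 higher and 1551 lower as deposited, 668 and 1314 without nrpe1-11 replicate 3, and 1800 and 1673 when each library was brought to the same sum over protein-coding genes. Among members the count was 8 with a pseudocount of 0.1 in place of 1. Without a nrpe1-11 library only 17 members passed the filter and 1 was called, since the other members pass it only through 3 nrpe1-11 libraries.

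AT5G41830 differed most between the mutants, by 2.42 ± 0.21 on the log2(FPKM + 1) scale (SE, n = 3 each). PDF1.5 followed with 1.84 ± 0.28, AT1G59930 with 1.62 ± 0.24 and AT5G63250 with 1.57 ± 0.23, each a difference with its SE. AT4G01980 differed by 1.42 ± 0.24 and AT5G19633 by 1.37 ± 0.23. The others past the threshold, AT5G38005, AT3G28899, AT3G02465, AT3G13404, AT1G09945, AT3G29635 and CBL8, differed by 0.84 to 1.37. These 13 were 9 of 22 protein-coding members, 1 of 5 pseudogenes, 3 of 7 other noncoding RNAs and neither of the 2 small structured RNAs. The choice of members helps to set which of them pass, so nothing is read from the list or from its split by type. Of the 13, 10 were among the 11 members low in nrpd1-3, a split that low nrpd1-3 values help to produce.

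The other 23 members differed by 0.10 to 0.90, and a missed threshold does not show that the 2 mutants were alike. At the low end were AT2G34340 and AT1G71530, whose differences between nrpe1-11 and nrpd1-3 were 0.10 and 0.12. Both rested on single libraries. The difference for AT2G34340 was -0.074 without nrpd1-3 replicate 2, and that for AT1G71530 was -0.18 without nrpd1-3 replicate 3.

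**Figure D3:**
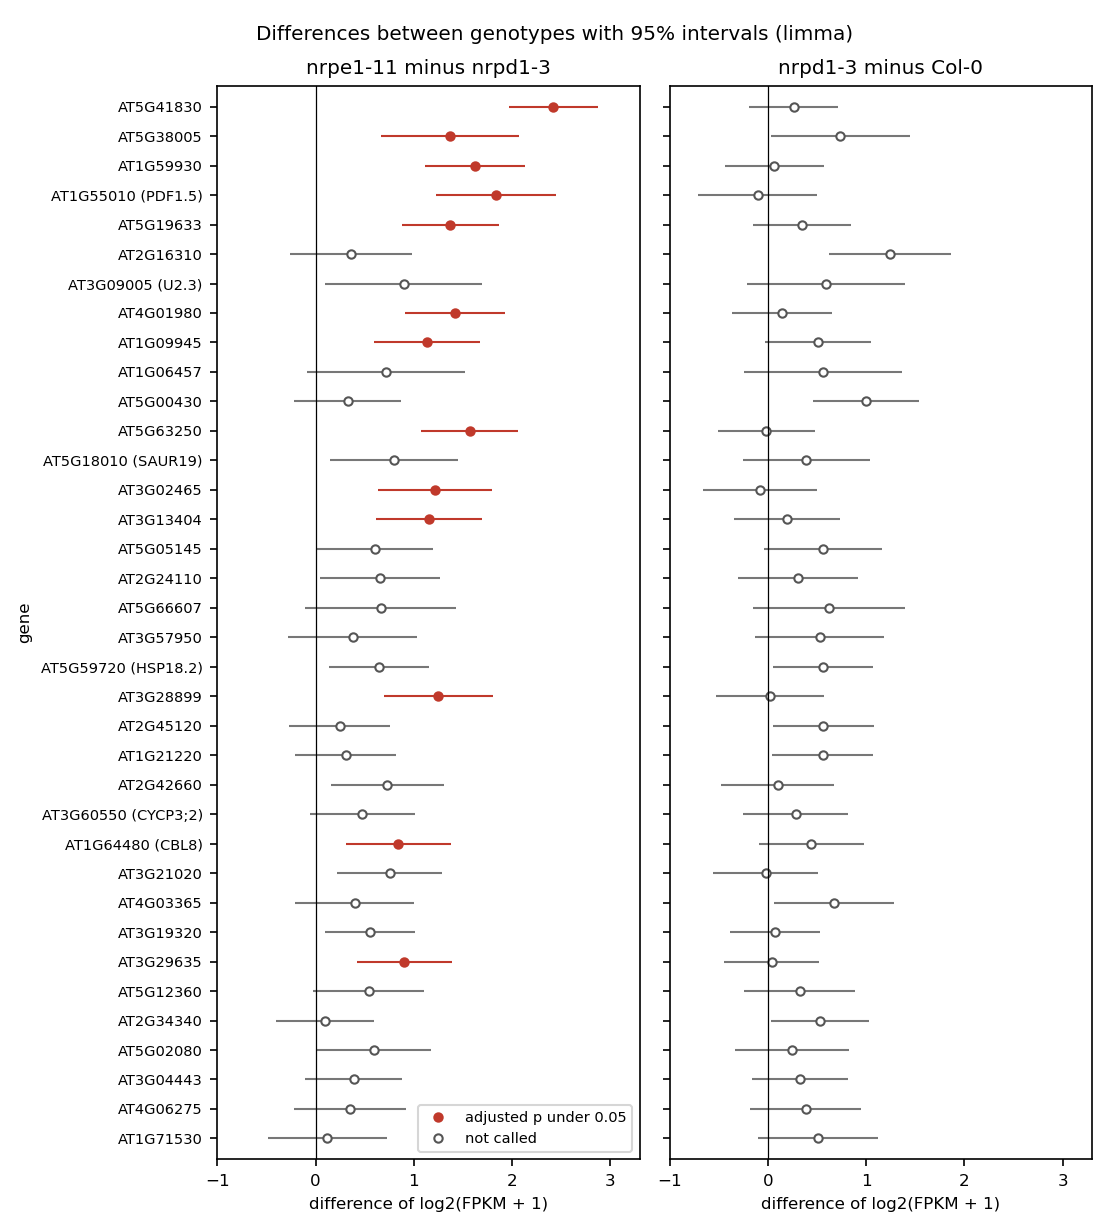
Difference of log2(FPKM + 1) with its 95% interval from limma for each of the 36 genes, nrpe1-11 minus nrpd1-3 on the left and nrpd1-3 minus Col-0 on the right. Filled red points are the 13 members with an adjusted p under 0.05, all on the left, where the choice of members helps to set the count, and none of the 36 was called on the right.

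Where a member shares its locus with another gene, its reads may not be its own. An overlap with another annotated locus was found for 15 of 36 members (41.7%), against 32.4% of tested genes and 28.5% of all genes. On the same strand it was 8 members (22.2%), against 6.0% of tested and 5.46% of all genes. Any shared base counts here, down to 1 base for AT5G12360 with SEC10 and 4 for AT2G24110 with SCA3. No source used here gives the strandedness of the libraries, so reads from opposite strands cannot be told apart. AT4G01980 lies wholly inside an intron of the noncoding gene AT4G02795 on the same strand, and shares none of its annotated exon bases. AT4G02795 averaged 29.7 ± 2.39 FPKM in nrpe1-11, 0.994 ± 0.904 in nrpd1-3 and 0.836 ± 0.731 in Col-0 (SD, n = 3 each). It rose in nrpe1-11 against Col-0 by 4.16 ± 0.35 on the log2(FPKM + 1) scale (SE) with an adjusted p of 6.30e-07 by limma. AT3G28899 lies wholly within an exon of AT3G28900 on the other strand. AT3G28900 averaged 32.5 ± 1.23 FPKM in nrpe1-11, 23.0 ± 2.08 in nrpd1-3 and 22.5 ± 4.68 in Col-0 (SD, n = 3 each), and rose by 0.53 ± 0.14 (SE) with an adjusted p of 0.0118 by limma. U2.3 sits in an intron of AT3G57800, which was not called, with 23.0 ± 0.436 FPKM in nrpe1-11, 19.9 ± 2.41 in nrpd1-3 and 17.5 ± 3.44 in Col-0 (SD, n = 3 each). AT1G06457 shares 70.1% of its bases with exons of AT1G31860, and AT3G02465 shares 82.1% with exons of TBL8 on the other strand. TBL8 itself averaged 0.348 ± 0.231 FPKM in nrpe1-11, 0.510 ± 0.213 in nrpd1-3 and 0.339 ± 0.294 in Col-0 (SD, n = 3 each).

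Neighbours outside the members were tested in nrpe1-11 against Col-0, where the shares of all genes given above (14.2% higher, 7.54% lower) are the background. The median difference over tested genes was 0.17 as deposited. Of 19 overlapping loci 7 were tested and 2 were higher. Of 36 upstream neighbours 14 were tested and 4 were higher, and of 36 downstream neighbours 12 were tested, 4 were higher and 1 was lower. The higher calls were not stable. The upstream count was 0 after median-ratio rescaling, 1 after quantile normalization and 2 without nrpe1-11 replicate 3. The downstream count was 2 after either of these scalings and 2 without nrpe1-11 replicate 1 or replicate 2. Some higher calls lay upstream of a named member on its own strand. AT3G11560, 89 bases before AT3G02465, averaged 73.9 FPKM in nrpe1-11, 61.9 in nrpd1-3 and 57.3 in Col-0. Its call was lost in 3 of 26 alternatives. AT1G55000, 357 bases before PDF1.5, averaged 22.6 FPKM in nrpe1-11, 20.9 in nrpd1-3 and 16.6 in Col-0. That call was lost in 21 of 26 alternatives. Both genes beside AT5G00430 were called, AKINBETA1, a subunit of the SnRK1 energy-sensing kinase, and LARP1a, an RNA-binding protein. AKINBETA1 averaged 91.0 ± 8.87 FPKM in nrpe1-11, 76.0 ± 2.49 in nrpd1-3 and 68.6 ± 6.53 in Col-0, and was no longer called after median-ratio rescaling or quantile normalization. LARP1a averaged 40.8 ± 0.446 FPKM in nrpe1-11, 31.9 ± 4.39 in nrpd1-3 and 29.5 ± 1.88 in Col-0 (SD, n = 3 each). The lower neighbour was EXO70H7, a subunit of the exocyst that tethers secretory vesicles, which lies 574 bases downstream of HSP18.2. It fell to 5.74 ± 1.25 FPKM in nrpe1-11, against 10.2 ± 1.11 in nrpd1-3 and 8.85 ± 0.116 in Col-0 (SD, n = 3 each), and was not called without nrpe1-11 replicate 2.

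Related transcripts elsewhere in the genome were found for 15 of the 36 members. For 3 of them the match was at least 95% identical over at least 30% of the member, which leaves the division of reads between the copies uncertain. AT1G59930 is 98.8% identical to its tandem neighbour AT1G59920 over 70.7% of its length. AT1G59920 lies 1081 bases downstream and had 0.930, 1.47 and 1.44 FPKM in nrpe1-11, 0.390, 0.224 and 0.245 in nrpd1-3, and 0.378, 0.271 and 0.220 in Col-0. It stood above the other genotypes in all nrpe1-11 libraries, as AT1G59930 did, and missed the rule through a single library below 1 FPKM. AT4G01980 is 98.8% identical over 97.0% of its length to AT2G22710, which had 0.552, 0 and 0 FPKM in nrpe1-11, 0, 0 and 0 in nrpd1-3, and 0.255, 0 and 0 in Col-0. AT3G04443 is 97.6% identical over 96.0% of its length to the noncoding AT3G03702, which averaged 0.392 FPKM in nrpe1-11, 0.324 in nrpd1-3 and 0.248 in Col-0.

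Looser relatives behaved in different ways. AT5G38005 is 92.7% identical over 50.3% of its length to AT4G04223, another noncoding RNA at a far higher level. AT4G04223 had 61.6, 57.0 and 67.1 FPKM in nrpe1-11, 32.2, 31.4 and 30.7 in nrpd1-3, and 35.7, 25.1 and 34.2 in Col-0. It rose in nrpe1-11 against Col-0 by 0.96 ± 0.12 (SE) with an adjusted p of 5.11e-05 by limma. The shared stretch, bases 1 to 274 of the AT5G38005 transcript and 43 to 307 of AT4G04223, is printed because reads from it could be placed at either gene. Capitals mark the 11 mismatched bases and the 1 gap, where AT5G38005 has extra bases.
AT5G38005, transcript at chr5:15155067-15156088, plus strand: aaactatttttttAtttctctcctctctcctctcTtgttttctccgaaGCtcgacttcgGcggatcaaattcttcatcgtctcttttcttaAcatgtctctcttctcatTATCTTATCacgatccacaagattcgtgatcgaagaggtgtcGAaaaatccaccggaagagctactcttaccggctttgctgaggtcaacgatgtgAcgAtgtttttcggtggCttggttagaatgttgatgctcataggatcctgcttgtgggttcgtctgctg
AT4G04223, transcript at chr4:2036511-2037816, plus strand: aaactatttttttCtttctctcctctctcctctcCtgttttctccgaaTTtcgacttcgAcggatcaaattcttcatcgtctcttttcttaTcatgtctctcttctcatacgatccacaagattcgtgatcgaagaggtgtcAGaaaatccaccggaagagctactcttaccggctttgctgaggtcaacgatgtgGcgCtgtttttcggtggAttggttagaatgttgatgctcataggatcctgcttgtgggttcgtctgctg
AT3G28899 is 91.7% identical over 94.3% of its length to the noncoding AT2G01422, which had 8.81, 5.34 and 7.68 FPKM in nrpe1-11, 1.52, 2.23 and 1.59 in nrpd1-3, and 0.452, 1.14 and 3.50 in Col-0. AT2G01422 rose in nrpe1-11 against Col-0 by 1.76 ± 0.32 (SE) with an adjusted p of 0.00118 by limma. AT5G41830 is 91.6% identical over 91.1% of its length to the F-box gene AT4G00320, which was listed at 0 in all 9 libraries. The leucine-rich repeat gene AT3G19320 is 79.3% identical over 63.2% of its length to AT1G49750, which had 23.6, 22.8 and 24.1 FPKM in nrpe1-11, 38.2, 35.0 and 37.0 in nrpd1-3, and 34.8, 31.2 and 34.7 in Col-0. AT1G49750 fell by 0.49 ± 0.10 (SE) in nrpe1-11 against Col-0 with an adjusted p of 0.00192 by limma, while its relative was chosen for being higher there. SAUR24, 93.0% identical to SAUR19, was not called and averaged 2.76 FPKM in nrpe1-11, 3.25 in nrpd1-3 and 2.72 in Col-0. AT5G65685, 88.9% identical to AT5G66607 over 100% of its length, was not called either. Nor were AT1G06463, COAB, AT3G21010, AT3G60580 and cycp3;1, relatives of AT1G06457, AT5G02080, AT3G21020, AT2G45120 and CYCP3;2 in that order. Over all tested genes 14.2% were called higher in nrpe1-11 against Col-0 and 7.54% lower.

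**Figure D4:**
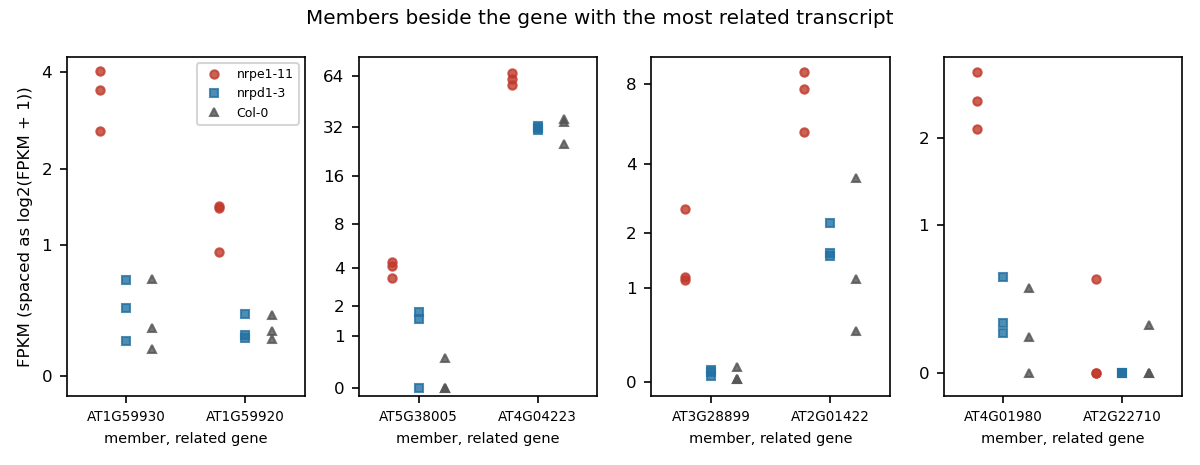
FPKM of 4 members and of the most related gene of each, with 1 point per library on an axis spaced as log2(FPKM + 1). The related genes AT1G59920, AT4G04223 and AT2G01422 have all nrpe1-11 points above the nrpd1-3 and Col-0 points, and AT2G22710 is listed at 0 in 7 of 9 libraries.

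Genes linked to DNA methylation or imprinting were looked up beside the members. A list of 16 such genes, drawn up with earlier results of these data known, held no gene that met the rule. It was not limited to genes that methylation silences, and ROS1 and IBM1 are not of that kind. Its counts are therefore not counts of silenced targets, and ROS1 is among the lower calls. Of the 16, 8 were tested in nrpe1-11 against Col-0, and 1 was called higher and 4 lower by limma, where 14.2% of all tested genes were higher and 7.54% lower, shares that turn to 1189 higher and 2163 lower calls after median-ratio rescaling. No gene of the list was called in nrpd1-3 against Col-0, where 0 of all 18212 tested genes were called, so nothing is read from that. The 5 genes FWA, SUP, AGL36, FIS2 and HDG9 were listed at 0 in all 9 libraries. SDC, an F-box gene silenced by promoter methylation, had 0.107, 0.316 and 0.731 FPKM in nrpe1-11, 0.215, 0.965 and 0.548 in nrpd1-3, and 0.284, 0.456 and 0.520 in Col-0. It overlapped between all 3 genotypes. QQS was listed at 0 in all nrpe1-11 libraries, against 3.41, 1.27 and 1.10 FPKM in nrpd1-3 and 4.77, 1.38 and 3.39 in Col-0, the opposite pattern to that of the 36 members. Its fall was called at an adjusted p of 0.000579 by limma.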

How the data were processed

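The authors' deposited table gives FPKM per gene for 9 libraries. Per the submitters' processing notes, fastp 0.23.2, HISAT2 2.2.1, StringTie 2.1.7 and TAIR10 were used, and roles and settings are not given in the sources used here. The starting point was 37929 lines for 37898 genes, of which AT1G58520 was on several lines and the line with most values above 0 was kept. All 37898 identifiers were found in the TAIR10.1 annotation, from which positions and sequences were read. Read numbers were not used here, and depth was estimated from the spacing of low values.

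The members and all gene lists were chosen with earlier results of these data known. Genes at 1 FPKM or more in at least 3 of the 9 libraries (18212) were fitted as log2(FPKM + 1) in limma 3.58.1 (R 4.3.3) with a mean for each genotype, a trended prior and 14.8 degrees of freedom. Tests were two-sided and adjusted (Benjamini-Hochberg) over all tested genes, with calls at an adjusted p under 0.05. Differences are on the log2(FPKM + 1) scale, which understates the change of low genes. The fit was tested on simulated data, where 6 of 17658 unchanged genes were called for nrpd1-3 against Col-0. Related transcripts were found with blastn 2.17.0. Genes named are the 20 members with the highest nrpe1-11 mean, any member at 1 FPKM in every nrpd1-3 library, the nearest 2 on each side of each limit, overlapping or neighbouring genes, and exceptions stated as such. Alternatives were other scalings, filters, pseudocounts and limits, a replicate block, fits limited to the 6 libraries compared, and each library left out.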

Additional observations from a re-analysis of the deposited data

How the results depend on the processing

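The rule found 9 genes with at least 2 FPKM in each nrpe1-11 library and 13 with a Col-0 mean below 0.25 FPKM, in place of 36. Of these, 1 and 0 were on in all nrpd1-3 libraries, and 5 and 7 were low in nrpd1-3, in place of 11. With each library left out, the rule found 36 to 79 genes, 1 to 8 were on in nrpd1-3, and 11 to 32 were low there. After median-ratio rescaling and rescaling to the protein-coding sum it found 27 and 35. Of the members higher in nrpe1-11 than in nrpd1-3, 8 in place of 13 were called with a pseudocount of 0.1. The count was 1 to 14 with each library left out, and 11 to 14 when the genes of the full fit were kept. The choice of members helps to set these counts and the block count below, so nothing is read from them. As deposited, 6.19% of all tested genes were called higher in that comparison. A mean FPKM of at least 5 left no member to test. Higher and lower calls summed over all genes stayed within 1.5 times under every alternative run, and nrpd1-3 against Col-0 stayed at 0. By direction they did not. For nrpe1-11 against Col-0, higher calls ran from 1189 to 2989 around 2581 and lower calls from 1023 to 2163 around 1374, and for nrpe1-11 against nrpd1-3 from 668 to 1800 around 1128 and from 1182 to 2009 around 1551. Among the named differences that were rerun, 2 changed sign, both between nrpe1-11 and nrpd1-3. AT1G71530 turned to -0.18 without nrpd1-3 replicate 3 and AT2G34340 to -0.074 without nrpd1-3 replicate 2, and with each library left out they ran up to 0.36 and 0.27. Over the alternatives the difference of AT3G21020 in that comparison lay on both sides of the threshold. The labels give all genotypes the replicate numbers 1 to 3. Libraries with the same number correlated by -0.072 to 0.146 in their deviations, with 1 of 9 pairs over 0.1, and 5 of 18 best matches were with the own number, so they were not taken as paired. With the replicate number as a block, 14 members were called in nrpe1-11 against nrpd1-3 and 0 in nrpd1-3 against Col-0, and over all genes 4428 were called for nrpe1-11 and 0 for nrpd1-3 relative to Col-0, and 2996 between the mutants. Depth limits these values, with a median of 4.84 estimated fragments in the shallowest nrpe1-11 library of a member.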
